A study of Mus musculus with 12 samples.

Results

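The stathmin family has 4 genes in the mouse, Stmn1, Stmn2, Stmn3 and Stmn4, and all 4 are on the Affymetrix Mouse Exon 1.0 ST array. They were taken as the main probesets that the deposited table names by these symbols, which gave 31 probesets of 221417 main probesets with a symbol, and 4 genes of 17550. A probeset is a small group of probes within 1 exon or a part of it. Total RNA of 12 whole brains of newborn female mice was hybridized, 1 brain per array. Of these, 6 were wildtype (KIS +/+) and 6 were KIS-ko (KIS -/-), and each of 6 litters gave 1 brain of each genotype. KIS-ko mice lack the protein kinase KIS, the product of the gene Uhmk1, and had been backcrossed for 10 generations to C57BL6/N. The question was whether the levels of the stathmin genes in the newborn brain, or the use of their exons, differed between KIS-ko brains and those of wildtype littermates, and how the levels varied from litter to litter.

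Stathmins are small phosphoproteins that bind dimers of alpha and beta tubulin and favour the disassembly of microtubules, and phosphorylation of their serines weakens this binding. Stathmin itself, the product of Stmn1, is cytosolic, while SCG10 (Stmn2), SCLIP (Stmn3) and RB3 (Stmn4) carry an additional palmitoylated domain that anchors them to membranes and are found mainly in neurons, where they act in the growth of axons and dendrites. Stathmin has been reported as a partner and substrate of KIS, a relation between proteins that an array of RNA does not measure.

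The probesets of the 4 genes lay on 5 transcript clusters. The positions given here are those of the deposited table, whose genome build is not given in the sources used here. Stmn2 had 11 probesets in 7 exons on the + strand (chr3:8509541-8561558). Stmn3 had 5 probesets in 4 exons on the - strand (chr2:181041193-181043932). Stmn4 had 7 probesets in 6 exons on the + strand (chr14:66973203-66980481), all 7 marked in the table as matching 1 place only. Stmn1 stood in the table at 2 places of chromosome 4. The first, with 4 probesets in 4 exons on the + strand (chr4:134026021-134029312), lay between Pafah2 and Paqr7, which are also the nearest genes to Stmn1 in the order of the RefSeq genes. The second, with 4 probesets in 1 exon on the - strand (chr4:69586274-69587059), lay between Dbc1 and Cdk5rap2, away from those neighbours. None of the 8 Stmn1 probesets was marked as matching 1 place only, so that the Stmn1 signal may hold RNA from near-identical copies, and the Stmn1 values are uncertain to that extent.

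The targeted gene was checked first. The gene value used throughout is the mean over a gene's probesets of log2(PLIER signal + 16), where PLIER is the algorithm that summarized the probes. For Uhmk1 it was 10.97 ± 0.057 in wildtype and 8.85 ± 0.15 in KIS-ko brains (SD, n = 6 each), lower in 6 of 6 litters (difference -2.11, SE 0.068, limma adjusted p = 2.91e-07). Signal medians of the 12 arrays lay between 478 and 546, the median difference of all 17279 genes tested was -0.036, and 69.8% of them had a negative difference whatever their p. All 8 measured neuronal markers, Dcx and Snap25 among them, lay above the intron control level described next.

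All 31 stathmin probesets passed the filter on relative SD. Their mean signals all exceeded 713, the level below which 95% of the 5222 intron control probesets lay. The median probeset signal was 9670 for Stmn1, 11500 for Stmn2, 10400 for Stmn3 and 4040 for Stmn4. Signals of different probes cannot be ranked against each other, so these values say that each of the 4 transcripts was detected and give no order among the genes.

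None of the 4 stathmin genes passed the test between the genotypes. At an adjusted p of 0.05 in limma with the litter as a block, 0 of 4 were called (background 0.00579% of genes), and 0 of 4 passed at an unadjusted p of 0.05 (background 6.16% of genes, made up of 4.34% lower and 1.82% higher in KIS-ko brains). The estimates were negative for all 4, a direction shared by 69.8% of genes, and those of Stmn1, Stmn2 and Stmn3 turned positive (0.02, 0.00 and 0.01) once each array was centred on its median, a scaling in which 38.7% of genes were lower and the median gene differed by 0.018. With the arrays quantile-normalized again, 48.6% of genes were lower and the median gene differed by 0.002. The wildtype and KIS-ko values overlapped for all 4 genes, as they did for all but 0.208% of genes.

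Stmn1, whose product is the reported KIS substrate, had a lowest, median and highest gene value of 13.15, 13.20 and 13.27 in wildtype brains. In KIS-ko brains these were 13.02, 13.20 and 13.26, so that the KIS-ko values spanned all but the top of the wildtype values. Within litters 1 to 6 KIS-ko minus wildtype was 0.02, 0.01, -0.01, 0.01, -0.13 and -0.13. Littermates were thus nearly equal in 4 litters, and the KIS-ko brain was the lower one in litters 5 and 6. The mean was 13.21 ± 0.043 against 13.17 ± 0.086 (SD, n = 6 each), a difference of -0.04 with a 95% interval from -0.14 to 0.07, or a fold of 0.973 (0.905 to 1.05). It did not pass the tests, which use the spread of the differences within litters (SE 0.047, limma adjusted p = 0.761, and exact sign-flip permutation test over 6 litters, two-sided p = 0.438). The smallest p that this exact test can give is 0.03125.

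The 2 places that the table lists for Stmn1 gave estimates whose intervals overlapped. These estimates are not independent, since they share the arrays and may share RNA. The probesets between Pafah2 and Paqr7 differed by -0.02 (SE 0.046, 95% interval -0.13 to 0.08, limma adjusted p = 0.847) and were lower in 3 of 6 litters. Those of the second place differed by -0.06 (SE 0.049, 95% interval -0.16 to 0.05, limma adjusted p = 0.713) and were lower in 5 of 6 litters. Over the 12 arrays, which the 2 places share, their values correlated with r = 0.84. As a description, probesets of the 2 places were paired by equal length alone. They correlated with r = 0.97 for the 30-base pair, 0.86 for the 49-base pair and 0.24 for the 26-base pair. The 26-base pair joined the most 5′ probeset of the first place to the most 3′ one of the second (wildtype mean signals 12901 and 6668). Its r may thus compare different stretches and does not show how well the 2 places match. Whether the probesets of a pair read the same sequence was not tested.

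Stmn2 encodes SCG10, a stathmin of growing axons. Its lowest, median and highest gene values were 13.20, 13.37 and 13.44 in wildtype and 13.25, 13.30 and 13.40 in KIS-ko brains. The KIS-ko range lay inside the wildtype range. Within litters 1 to 6 the difference was -0.06, 0.01, -0.03, 0.10, -0.19 and -0.17, lower in 4 of 6. Litter 4, with the highest KIS-ko value relative to its littermate, also had the lowest wildtype value of the 12 arrays. The means were 13.35 ± 0.086 and 13.30 ± 0.054 (SD, n = 6 each), and the difference of -0.05 (SE 0.053, 95% interval -0.17 to 0.06, fold 0.963) did not pass the test (limma adjusted p = 0.726; exact sign-flip permutation p = 0.312).

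Stmn3 encodes SCLIP. Its lowest, median and highest gene values were 13.25, 13.39 and 13.42 in wildtype and 13.24, 13.33 and 13.37 in KIS-ko brains, so that 2 of the 6 wildtype brains fell inside the KIS-ko range and 4 lay above it. The litters gave -0.07, -0.15, 0.02, 0.12, -0.12 and -0.07, so that 4 of 6 were lower and litter 4 again went the other way. The means were 13.37 ± 0.061 and 13.32 ± 0.048 (SD, n = 6 each). Their difference of -0.04 (SE 0.051, 95% interval -0.16 to 0.07, fold 0.970) did not pass the test either (limma adjusted p = 0.757; exact sign-flip permutation p = 0.312).

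Stmn4 encodes RB3. Its lowest, median and highest gene values were 11.0, 11.51 and 11.69 in wildtype and 11.06, 11.44 and 11.56 in KIS-ko brains, and both lowest values came from litter 5. The litters gave -0.13, -0.07, -0.01, -0.13, 0.07 and -0.22, lower in 5 of 6. The means were 11.47 ± 0.25 and 11.39 ± 0.17 (SD, n = 6 each). The difference of -0.08 (SE 0.051, 95% interval -0.20 to 0.03, fold 0.944) was the most negative of the 4 estimates and did not pass the test (limma adjusted p = 0.685; exact sign-flip permutation p = 0.0938). Without litter 5, the litter in which the KIS-ko brain was the higher one, it was -0.11 (SE 0.056, limma adjusted p = 0.707), still not past an unadjusted p of 0.05 (background then 6.82% of genes).

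**Figure D1:**
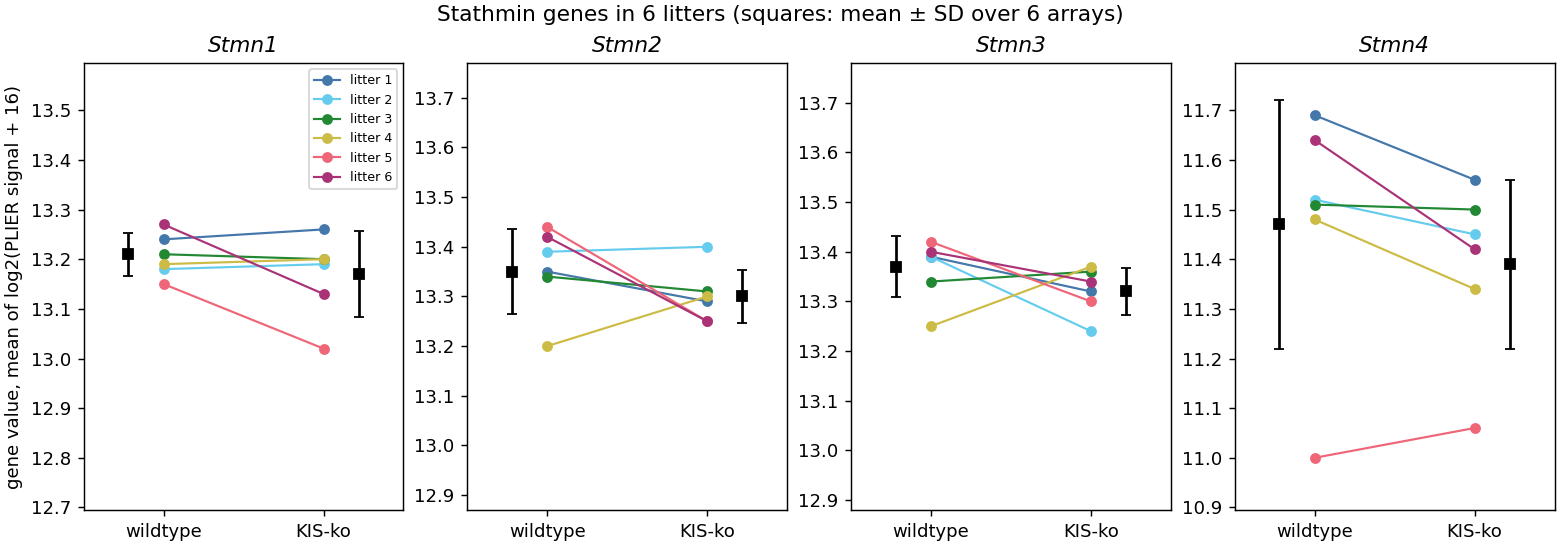
Gene value (mean over probesets of log2(PLIER signal + 16)) of the 4 stathmin genes in wildtype and KIS-ko brains. Each coloured line joins the littermates of 1 of 6 litters, and black squares with bars are the mean ± SD over 6 arrays. The vertical axes start at different values but span the same range. Wildtype and KIS-ko values overlap in every panel, and both Stmn4 values of litter 5 lie below the other 10.

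The measure of the study's methods averages the KIS-ko over wildtype ratios of a gene's probesets, weighted by how little each ratio varied between pairs, and counts a change of at least 6%. The weighted fold change was 0.980 ± 0.042 for Stmn1, 0.967 ± 0.051 for Stmn2, 0.967 ± 0.060 for Stmn3 and 0.940 ± 0.049 for Stmn4 (SD over 6 litters). All 4 were below 1, as were 56.2% of genes. None of the 4 reached the 6% limit (background 26.4% of genes), with Stmn4 just short of it. Stmn4 passed it without litter 5, at 0.923 (background then 31.4% of genes).

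The arrays as a whole also differed within litters. The median gene value of the KIS-ko array minus that of its littermate was -0.08, -0.14, -0.01, 0.10, -0.05 and -0.16 in litters 1 to 6. Taken relative to these, the differences were 0.02 ± 0.093 for Stmn1, 0.00 ± 0.092 for Stmn2, 0.01 ± 0.054 for Stmn3 and -0.03 ± 0.12 for Stmn4 (SD over 6 litters). The positive differences of Stmn2 and Stmn3 in litter 4 became 0.00 and 0.02 on this scale, while the negative one of Stmn4 in the same litter became -0.23. The part of the array medians in the results was not tested.

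Single probesets were examined for exons that behaved unlike the rest of their gene. Of the 31 stathmin probesets, 30 were lower in KIS-ko brains and 1 was higher, against 66.2% of all probesets lower. With centred arrays 13 of the 31 were lower (43.7% of all probesets), and with arrays quantile-normalized again 23 (51.0% of all probesets). None was called at an adjusted p of 0.05 (background 0.00487% of probesets) or at an unadjusted p of 0.05 (background 6.63%), and none had wildtype and KIS-ko signals that did not overlap (background 0.173%). The probesets of a gene share their arrays and are not independent of each other.

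The 1 higher probeset was the most 5′ one of Stmn2, at 14035 ± 690 in wildtype and 14167 ± 500 in KIS-ko brains (signal, SD, n = 6 each). The other Stmn2 probesets differed by up to -0.11 on the log2 scale. The Stmn2 estimate of -0.11 came from its probeset 3, counted from the 5′ end, with 10581 ± 397 in wildtype and 9819 ± 171 in KIS-ko brains, lower in 6 of 6 litters (SE 0.059, limma adjusted p = 0.763). Its wildtype signals ran from 9961 to 11100 and its KIS-ko signals from 9607 to 10123, so that they overlapped. In the last exon of Stmn2, where the table places 5 probesets, the first of these varied most between brains, from 2672 to 5946, while the longest, of 535 bases, ran only from 7678 to 8966.

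In Stmn3 the differences lay between -0.10 and -0.01, and the most 3′ probeset had the estimate of -0.10, with 16211 ± 457 in wildtype and 15150 ± 597 in KIS-ko brains (signal, SD, n = 6 each). In Stmn1 they lay between -0.08 and 0.00. In Stmn4 all 7 estimates were negative, from -0.14 to -0.04. The smallest p among all 31 was that of Stmn4 probeset 5, with 4736 ± 630 in wildtype and 4315 ± 537 in KIS-ko brains, lower in 6 of 6 litters (difference -0.13, SE 0.063, limma adjusted p = 0.757). With it, Stmn4 probeset 4 and the Stmn2 probeset above, 3 of 31 stathmin probesets were lower in all litters, against 2.12% of all probesets.

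**Figure D2:**
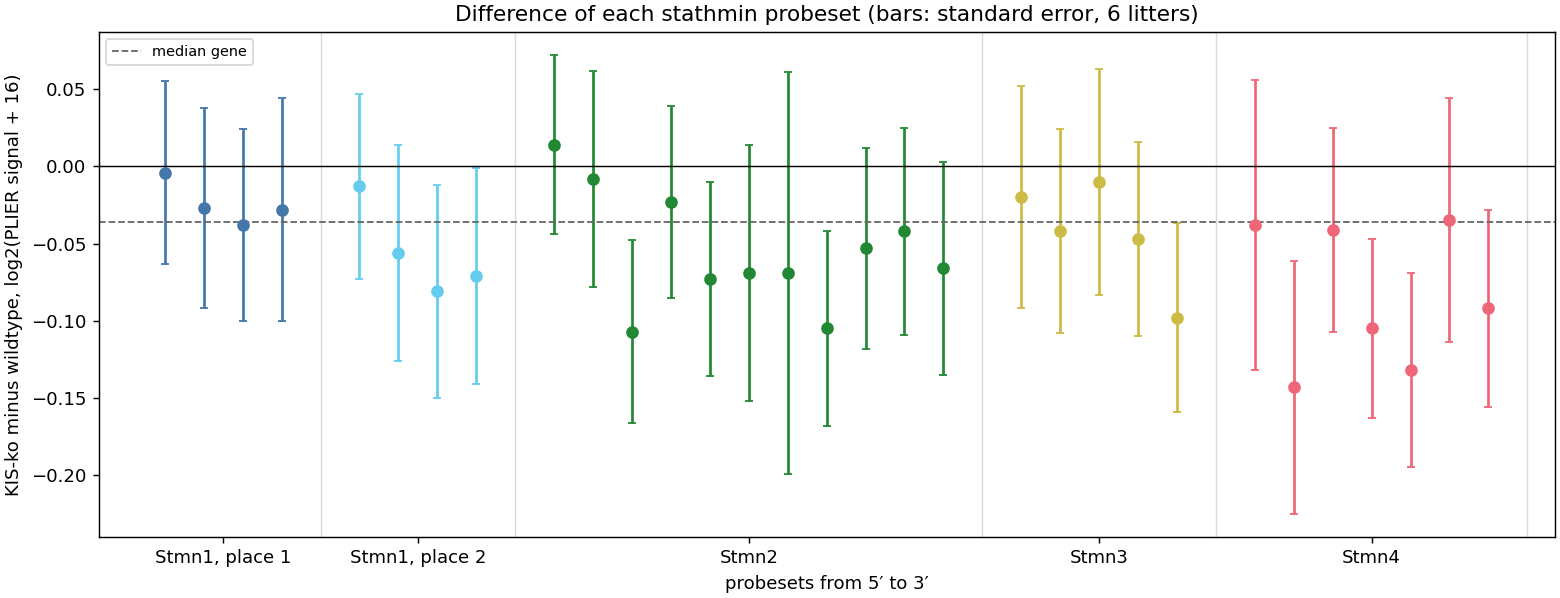
KIS-ko minus wildtype difference of each stathmin probeset on the log2(PLIER signal + 16) scale, in order from 5′ to 3′ within each transcript cluster; Stmn1 has 2 places in the table. Points are estimates over 6 litters, bars are their standard errors, and the dashed line is the median difference of all genes, -0.036. The estimates run from -0.14 to 0.01 around that line, and none passed the test.

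The splicing index, which is a probeset's log2 value minus its gene value, asks whether 1 exon departs from the others. Its difference between the genotypes lay between -0.06 and 0.07 over the 31 stathmin probesets. None was called at an adjusted p of 0.05 (background 0.000985%) or at an unadjusted p of 0.05 (background 6.11%), and the smallest limma adjusted p was 0.887, at the most 5′ probeset of Stmn2. Differences in exon use of the stathmin transcripts were thus not detected with 6 arrays per genotype, and how small a difference could be detected was not tested.

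Among litters, Stmn4 had the widest range of the 4 genes. The means of the 2 littermates ranged over 0.17 for Stmn1, 0.15 for Stmn2, 0.06 for Stmn3 and 0.59 for Stmn4, where the median gene ranged over 0.21. For Stmn4 the order from the lowest was litter 5 at 11.03, litter 4 at 11.41, litter 2 at 11.49, litter 3 at 11.5, litter 6 at 11.53 and litter 1 at 11.62. The gap of 0.38 between litters 5 and 4 compares with an SD within litters of 0.071. The later gaps, of 0.02 to 0.09, were close to that SD or below it. For Stmn1, litter 5 was also the lowest, at 13.08 against 13.19 for the next, with an SD within litters of 0.052. The litters of Stmn2 and Stmn3 followed each other in steps of at most 0.08 and 0.04, with SDs within litters of 0.078 and 0.069.

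In litter 5 Stmn4 was 0.48 lower on the log2 scale than in the mean of the other litters, or 28.4% lower. Both genotypes had this low value, at 11.0 in the wildtype and 11.06 in the KIS-ko brain, and the gap to the lowest of the other 10 arrays was 0.28. A litter with both of its arrays below all others was found for 17.1% of genes, and litter 5 was that litter for 13.1%. The F test of litters in limma gave an unadjusted p of 0.000719 for Stmn4, which 0.422% of genes reached, and an adjusted p of 0.168, which is not past the threshold. No gene was called by this test at an adjusted p of 0.05 (background 0.0%), and 11.3% of genes passed at an unadjusted p of 0.05. Stmn4 was called when dim probesets were left out (adjusted p = 0.0350, background 2.46%) and with variance moderation by trend and robust (adjusted p = 0.0168, background 0.972%). Without litter 5 the unadjusted p was 0.276. The litter F test did not call Stmn1, Stmn2 or Stmn3 (limma adjusted p = 0.857, 0.944 and 0.992).

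The low values of litter 5 were found at nearly all Stmn4 probesets. In 6 of the 7 probesets both litter 5 signals lay below all 10 others (background 11.2% of probesets), and litter 5 minus the other litters lay between -0.61 and -0.33 on the log2 scale. At the most 3′ probeset of Stmn4, the litter 5 signals were 3808 in wildtype and 3728 in KIS-ko, where the other wildtype brains gave 5740, 5620, 5501, 5401 and 5973 and the other KIS-ko brains 5754, 5509, 5106, 4981 and 4947. The exception was the most 5′ probeset, with 2853 in the wildtype brain of litter 5 but 3849 in its KIS-ko littermate, within the range of the other KIS-ko brains, from 3754 to 4209.

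**Figure D3:**
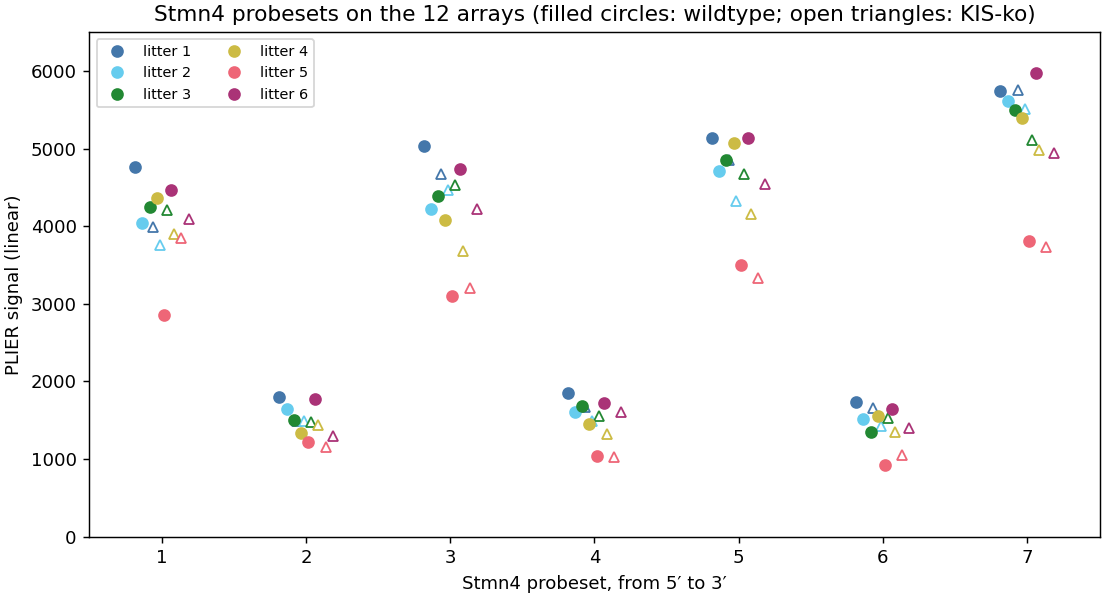
PLIER signal on a linear axis of the 7 Stmn4 probesets, from 5′ to 3′, in the 12 brains. Filled circles are wildtype and open triangles KIS-ko, coloured by litter, 1 point per array. The 2 points of litter 5 are the lowest in every probeset but the first, where the KIS-ko brain of litter 5 lies among the others.

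Other measures of litter 5 stood beside these values. The median gene value of its arrays was 8.71 in wildtype and 8.66 in KIS-ko, against 8.70 to 8.87 in the other 10 arrays, and the median over all genes of litter 5 minus the other litters was -0.032. Of the 8 measured neuronal markers, all above the intron control level and none at 0, 6 were lower in litter 5, with a median of -0.07, and 3 had both litter 5 arrays below all others (Elavl4 at -0.34, Syt1 at -0.26 and Dcx at -0.11), as had 13.1% of all genes. The same held for 1 of 9 progenitor, 1 of 6 astrocyte and radial glia, 1 of 6 endothelial and pericyte and 1 of 7 oligodendrocyte lineage markers, and for 0 of the microglia, choroid plexus, meninges and erythroid markers. The mean level of the 8 markers was 11.94 and 11.90 in the wildtype and KIS-ko brains of litter 5 and 11.94 to 12.07 in the other 10. Of the astrocyte and radial glia markers 5 of 6 were lower in litter 5 (median -0.13, mean level 11.04 and 10.99 against 10.97 to 11.28), and of the endothelial and pericyte markers 6 of 6 (median -0.12, mean level 9.65 and 9.60 against 9.63 to 9.89). Of the markers of proliferating progenitors 8 of 9 were lower, with a median of -0.07. The medians for the oligodendrocyte lineage, microglia, choroid plexus, meninges and erythroid cells lay between -0.04 and 0.02. The part of these markers in the Stmn4 values was not tested. In whole brain, fewer cells of a type and less RNA per cell cannot be told apart. Whether the 2 brains of a litter were also prepared or scanned together is not given in the sources used here, so that litter and handling cannot be told apart.

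The genes most like each stathmin gene over the 12 arrays were sought among 6907 well measured genes, by Pearson's r of gene values after the median of each array was subtracted. For Stmn4 they were Ccdc56 (r = 0.96), Hip1 (0.94) and Ppap2c (0.93), which were also low in litter 5, by -0.52, -0.43 and -0.54. For Stmn3 they were Arf1 (r = 0.95), a small GTPase of the Golgi, Atp5d (0.94), a subunit of the mitochondrial ATP synthase, and Eif3b (0.93), a subunit of a translation initiation factor. For Stmn2 they were Nek9 (r = 0.94), a protein kinase, Actg1 (0.93), a cytoplasmic actin, and Atp1b1 (0.90), a subunit of the sodium pump. For Stmn1 they were Cdh2 (r = 0.86), which encodes N-cadherin, Ppp3ca (0.85), a catalytic subunit of calcineurin, and Luc7l (0.85). None of these 12 genes differed between the genotypes past the threshold.

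Among the stathmin genes themselves, r was 0.63 between Stmn2 and Stmn3, 0.32 between Stmn1 and Stmn2, 0.28 between Stmn1 and Stmn4 and 0.00 between Stmn1 and Stmn3. It was negative between Stmn4 and both Stmn2 (-0.47) and Stmn3 (-0.74). These correlations are descriptions over 12 arrays that share the subtraction of the array median, and the litter means of Stmn4 ranged over 0.59 with litter 5 and over 0.21 without it.

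Tubulins, which stathmins bind, showed no call. Of 19 listed tubulin genes 18 were measured, 13 lower and 5 higher in KIS-ko brains, with a median difference of -0.008 where the median of all genes was -0.036 and 69.8% of genes were lower. With centred arrays 2 of the 18 were lower (median 0.047; all genes 38.7% lower, median 0.018), and with arrays quantile-normalized again 5 (median 0.017; all genes 48.6% lower, median 0.002). None passed at an adjusted p of 0.05, and 1 of 18 passed at an unadjusted p of 0.05, close to the 6.16% of all genes. This was Tuba3b, an alpha tubulin whose 3 kept probesets had mean signals of 52.0, 278 and 552, each below the intron control level of 713, with 7.68 ± 0.23 in wildtype and 7.89 ± 0.080 in KIS-ko brains (difference 0.22, SE 0.089, limma adjusted p = 0.685), higher in 4 of 6 litters. Next came Tuba4a, also an alpha tubulin, with -0.13 (SE 0.065, limma adjusted p = 0.685). Tube1, which encodes epsilon tubulin of centrioles, gave -0.07 (SE 0.049, limma adjusted p = 0.687). Its median probeset signal was 201, also below the intron control level. Tubb3, the neuronal beta tubulin, gave 0.02 (SE 0.044), and Tuba1a, an alpha tubulin of developing neurons, 0.00 (SE 0.046). Several tubulin genes are nearly identical in sequence and may share signal, so that their values are uncertain.

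Kinases and phosphatases known to act on stathmin were measured for 18 of 19 listed genes. None passed at an adjusted p of 0.05 or at an unadjusted p of 0.05 (6.16% of all genes did at the latter). The estimates were lower for 17 and higher for 1, where 69.8% of all genes were lower, with a median of -0.064 against -0.036 over all genes and a range from -0.12 to 0.06. With centred arrays 11 were lower (median -0.007), where 38.7% of all genes were (median 0.018). With arrays quantile-normalized again 16 were lower (median -0.035), where 48.6% of all genes were (median 0.002). Among those of lowest p were Camk2d, a subunit of calcium/calmodulin kinase II (-0.12, SE 0.056), and Aurkb, the mitotic kinase Aurora B (-0.10, SE 0.063), each with a limma adjusted p of 0.685 and lower in 5 of 6 litters. Without litter 4, in which the KIS-ko array was the brighter one, 6 of the 18 passed at an unadjusted p of 0.05, all lower, against 23.3% of all genes in either direction, and the median was -0.087 against -0.057 over all genes. None of them passed at an adjusted p then either.

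The 7 genes listed as binding partners of stathmins or as enzymes that palmitoylate them gave 0 calls at an adjusted and 0 at an unadjusted p of 0.05 (6.16% of all genes), with 6 lower, 1 higher and a median of -0.044, where 69.8% of all genes were lower with a median of -0.036. With centred arrays 2 were lower (median 0.012), against 38.7% of all genes and a median of 0.018, and with arrays quantile-normalized again 5 (median -0.003), against 48.6% and a median of 0.002. The lowest p were those of the palmitoyl transferases Zdhhc7 (-0.10, SE 0.065, limma adjusted p = 0.686) and Zdhhc3 (-0.08, SE 0.058, limma adjusted p = 0.690), followed by Rgs20 (-0.05, SE 0.063, limma adjusted p = 0.783), a regulator of G protein signalling. The median probeset signals of Zdhhc7 (560) and Rgs20 (379) lay below the intron control level, and that of Zdhhc3 (1390) above it. Of the 7 genes, 4 lay above this level.

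**Figure D4:**
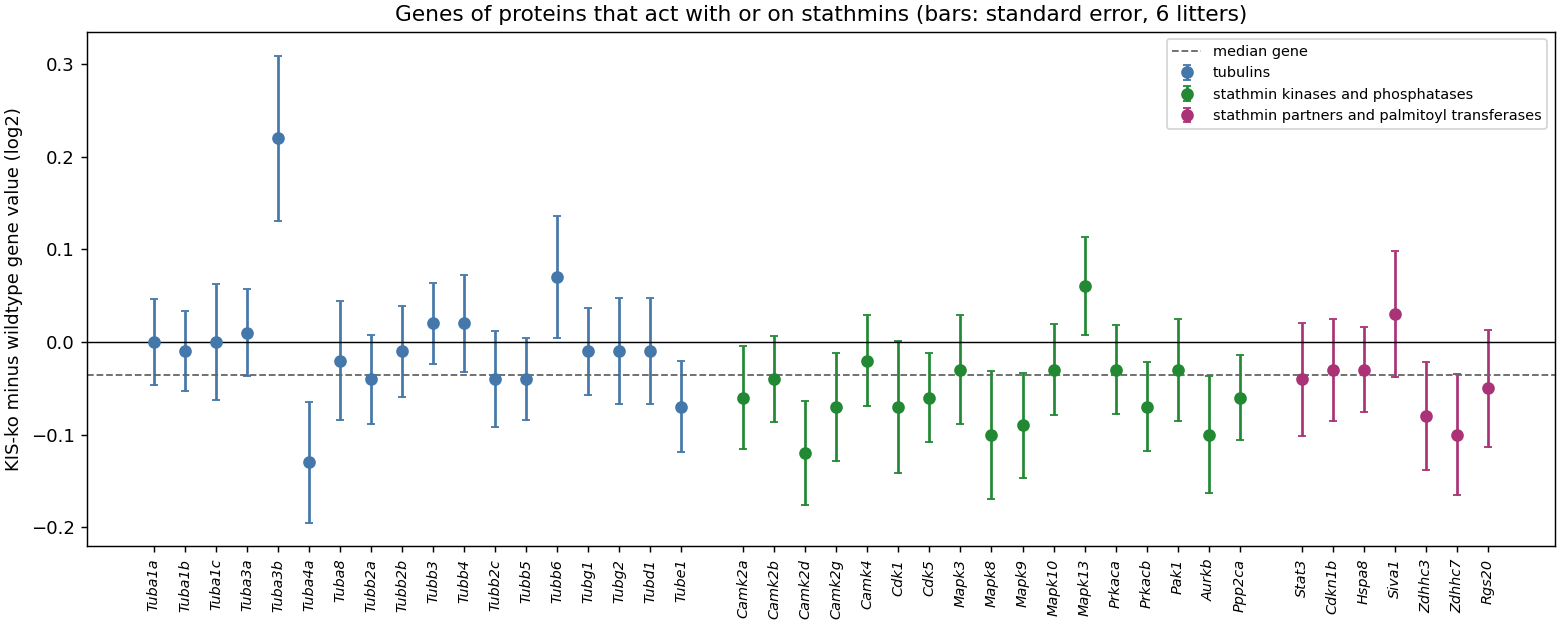
KIS-ko minus wildtype gene value (log2) of tubulins, stathmin kinases and phosphatases, and stathmin partners and palmitoyl transferases; 1 measured gene is not shown. Points are estimates over 6 litters and bars their standard errors; the dashed line is the median difference of all genes, -0.036. Tuba3b, at 0.22, is the 1 gene of the 3 lists that passed an unadjusted p of 0.05, and its 3 kept probesets all lay below the intron control level.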

How the data were processed

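Arrays were processed by the authors with Affymetrix Expression Console, with quantile normalization at the exon level and PLIER. The intensity deposited for each probeset is this PLIER signal on a linear scale. Main probesets with a symbol and a relative SD of at most 0.4 in both genotypes were kept (205469 probesets, 17279 genes). Genes, probesets, splicing indexes (at least 3 probesets) and litters were tested in R 4.3.3 by limma 3.58.1, with the litter as a block, a threshold of 0.05 and Benjamini-Hochberg adjustment over all features. For single genes an exact sign-flip permutation test over the litters was added. Arrays correlated with r from 0.977 to 0.99, none being identical. Litters come from the labels; after subtraction of genotype means, littermates correlated with r of 0.112, 0.022, 0.123, -0.089, 0.249 and -0.051 (wildtype and KIS-ko brains that were not littermates averaged -0.012). The p-values of tests with the block and of the sign-flip test rest on the spread of differences within these litters. In limma the variance of each gene is also drawn towards that of the others. The number of arrays and the signal over background limit the precision.

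The members and the gene lists were chosen with earlier results of these data known. Besides the members and Uhmk1, the genes named were, per pathway list, those past the adjusted threshold or else the 3 of lowest p, and the 3 genes most like each member (at least 4 probesets, mean signal above the intron control level). In the lists, 1 gene is counted but not reported here singly. Tuba1a, Tubb3 and the markers were named after their values were seen. Marker lists of neurons, progenitors, astrocytes, oligodendrocytes, microglia, endothelium, choroid plexus, meninges and erythroid cells gave 0 calls at the adjusted threshold; at an unadjusted p of 0.05, 1 of 6 astrocyte and 1 of 6 endothelial markers measured were lower and none of the other lists passed, against 4.34% of all genes lower and 1.82% higher. Alternatives were no block, pseudocounts of 1 and 64 in place of 16, no filter or one at 0.2, no dim probesets, probesets matching 1 place, centred or again quantile-normalized arrays, variance moderation by trend and robust, the median of a gene's probesets, and each litter left out; Stmn1 from each of its places was added after the data were seen. The fits were tested on simulated data. Python 3.11.15, numpy 2.4.6, pandas 2.3.3, scipy 1.17.1 and matplotlib 3.10.9 were used. Names were matched to RefSeq genes of GRCm38.p6, whose coordinates served only to order neighbouring genes and are not printed.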

Additional observations from a re-analysis of the deposited data

Results flagged for a closer look

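In 2 of the 39 groups of 6 values searched, 1 value stood farther from its nearest neighbour than the 95% limit of Dixon's test allows, which chance exceeds in about 1 of 20 groups. The wildtype brain of litter 5 had a Stmn4 gene value of 11.0, where the next wildtype brain had 11.48 (gap 0.70 of the range). Its KIS-ko littermate, at 11.06, was not far enough from the other KIS-ko brains to be singled out in this way. For Aurkb the litter 4 difference was 0.22, where the next highest litter gave -0.07 (gap 0.68 of the range).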

How the results depend on the processing

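No member, probeset or splicing index was called under any alternative run, and the adjusted p of the 4 genes lay between 0.295 and 1.0. With arrays centred on their medians the differences of Stmn1, Stmn2 and Stmn3 turned to 0.018, 0.003 and 0.014; the other settings kept the negative sign of all 4. With litters left out in turn the difference ran from -0.051 to -0.021 for Stmn1, from -0.087 to -0.028 for Stmn2, from -0.076 to -0.023 for Stmn3 and from -0.114 to -0.057 for Stmn4. Without the replicate block of litters the differences were unchanged, with SE of 0.048, 0.049, 0.044 and 0.11 and limma adjusted p of 0.804, 0.77, 0.783 and 0.813 for Stmn1 to Stmn4; the block changed no call. Stmn1 has no value with probesets matching 1 place only. The count of members whose litters differed went from 0 to 1 (Stmn4) with dim probesets left out and with trend and robust moderation. The count of members past 6% ran from 0 to 1 with litters left out, 1 (Stmn4) without litter 2, 3 or 5. Without litter 5 the background was 31.4% of genes, and it was not worked out without litter 2 or 3. Tubulins at an unadjusted p of 0.05 numbered 2 without the block, at pseudocount 64, with centred arrays and with trend, 0 with the filter at 0.2, without dim probesets and with the median over probesets, and 0 to 1 with litters left out. Kinases and phosphatases numbered 1 without the block, at pseudocount 64, with arrays quantile-normalized again and with trend, and 0 to 6 with litters left out (6 without litter 4). Partners numbered 1 with the median over probesets and 0 to 1 with litters left out (1 without litter 4). Of all genes, 23.3% passed at an unadjusted p of 0.05 in limma without litter 4 and 6.82% without litter 5. For the other settings this share was not worked out, so that these counts give no result about the lists. The causes of the changes between settings were not tested. With 6 pairs, the intervals of the member differences reach about 0.1 on either side of the estimate.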
